A study of Mus musculus with 12 samples.

Results

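Across 12 libraries of bisulfite-treated messenger RNA, 2455 positions were listed as candidate methylated cytosines although the reference genome holds another base there. They were selected on the share of reads with a variant base, among 6461219 listed positions as those that the methylation caller marked with the state for a variant base, on chromosomes 1 to 19 or X, with a coverage of at least 20 reads and at least 10% of reads carrying a base other than the reference in both replicates of at least 1 condition. The reference base was T at 2387 of them, A at 40 and G at 28, so none of them is a cytosine in the reference. These shares, the counts and their overlaps are therefore given as descriptions, with no test.

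The RNA came from neural stem cells of the adult subventricular zone, taken from wild-type male C57BL/6 mice aged 6 to 8 weeks and grown for 4 days in medium with 1.5 µM (LF), 10 µM (MF) or 80 µM (HF) folic acid. Total poly(A) RNA gave the conditions LF, MF and HF, and poly(A) RNA from the polysome fraction of the same doses gave pLF, pMF and pHF, with 2 libraries each. By their labels all groups share strain, sex and tissue of origin, and differ in dose and RNA fraction. The labels do not say whether replicates are separate cultures, so a p-value from values per library measures the spread between these libraries only. Fisher's exact test on pooled reads covers counting error only.

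Bisulfite turns unmethylated cytosine into uracil, which is sequenced as T, while 5-methylcytosine (m5C) stays C. A C read at a reference T can come from a C that was not converted or from a read that was misplaced or misread. At a reference A or G, a variant allele shows as T, with a few C reads where conversion failed or the base was methylated. Misplaced reads can give the same picture there. Inbred strains such as C57BL/6 carry almost the same alleles in every animal. Bases that differ from the reference may thus mark a culture of another strain, but cannot tell apart cultures of the same strain.

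The caller lists each position with 10 bases on either side, printed here 5′ to 3′ on the transcribed strand with mm10 coordinates, and 3 kinds of surroundings recurred. The first set below holds the positions called in all 6 conditions and 1 in Fbln2, a gene of the extracellular matrix that the study names; capitals mark the reference base that was read as C or T.
Ckb, chr12:111669507-111669527, minus strand: taacttattaAccgggcagtg
Ckb, chr12:111669598-111669618, minus strand: agcaacggctGgagcagggtc
Ckb, chr12:111670889-111670909, minus strand: gcatggcccgGgactggccgg
Gm12892, chr4:122009202-122009222, plus strand: ccaacgctgaGcgcctgggct
Fbln2, chr6:91233872-91233892, plus strand: gagtgacattGgacactgaag

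The next set shows the surroundings found in the libraries labelled HF, in genes that the study names; capitals mark the run of G and the reference T read as C.
Ptch1, chr13:63527198-63527218, minus strand: gatgacGGGGTcctcgcttac
Col8a1, chr16:57627774-57627794, minus strand: gcatgaGGGGTttgcctggtc
Wbp2, chr11:116079273-116079293, minus strand: gagcacGGGGTgaccctcgtt
Fbln2, chr6:91234088-91234108, plus strand: tgcaggaGGGTgctgcacctc

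The last set shows 1 position from each of 5 long tracts with almost no G, the first 3 called in polysome conditions and the last 2 in LF and MF; capitals mark the reference T read as C.
chr8 tract, chr8:6906788-6906808, minus strand: tttcttttctTtctttctctc
chr1 tract, chr1:137744631-137744651, plus strand: cttcctttctTccttccttcc
S100a13 tract, chr3:90519558-90519578, plus strand: tttcctccctTcctctccctc
chr14 tract, chr14:122497145-122497165, plus strand: ctcctttcccTccttcctttt
chr4 tract, chr4:138759554-138759574, plus strand: cctctccctcTccctctccct

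By these surroundings the 2455 positions fell into 4 classes, set after the sequences had been seen. The reference was A or G at 68 (2.77%), T after a run of at least 3 G at 1181 (48.1%), T in a stretch with at most 1 G among the 20 flanking bases at 968 (39.4%), and T in other surroundings at 238 (9.69%). At the 2387 reference T positions, 96.9% of the library values had no variant read other than C, and at 13 positions most variant reads were not C in at least 1 library.

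HF held 1421 positions, against 244 in LF, 230 in MF, 742 in pLF, 312 in pMF and 248 in pHF; with a minimum share of 0.2 in place of 0.1, HF held 645 and pLF 727. The libraries labelled HF stood apart before any comparison: 3028 and 2558 positions passed in them singly, against 305 to 1395 in the other 10. Most positions belonged to 1 condition (1940), 308 to 2, 197 to 3, 4 to 4, 2 to 5 and 4 to all 6. The same split was not counted for other listed positions. Reference cytosines with the same minimums on coverage and on C reads were mostly unshared too. Of those in LF or MF, 19.96% were also in a polysome condition, and 15.0% the other way, with tract cytosines included. HF alone accounted for 1391, and without the HF libraries 1064 positions would remain, of which 963 lay in G-poor tracts and 1 after a run of G. The libraries listed 797260 to 2071190 positions each, with median coverages of 336 to 946 reads; the part of depth in these counts was not tested.

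**Figure D1:**
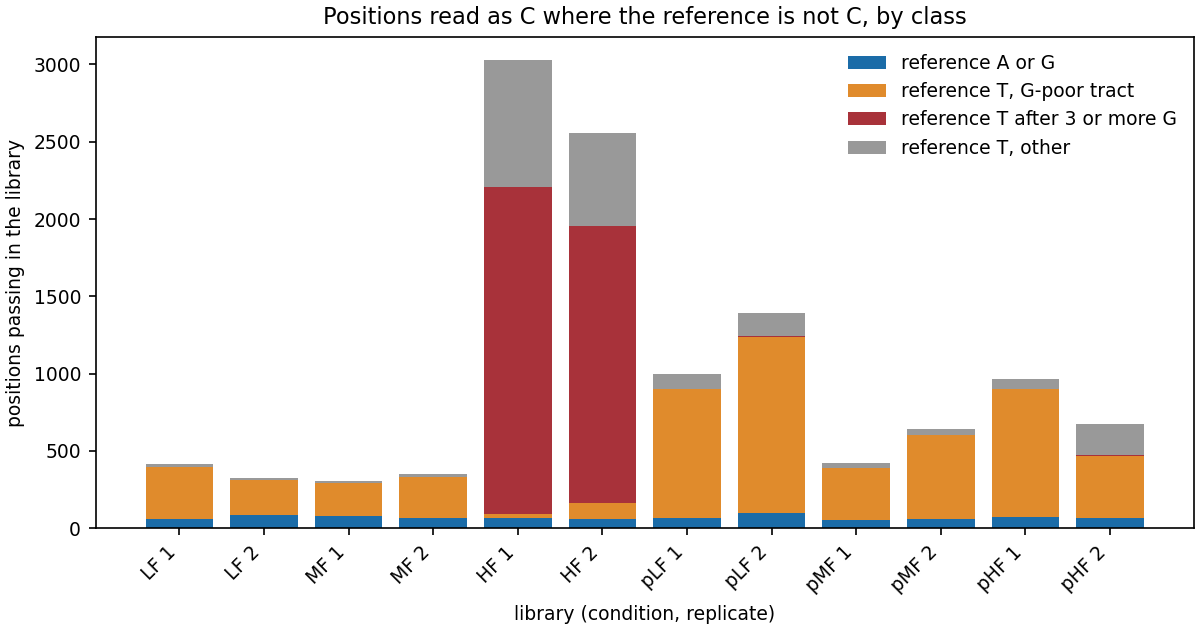
Number of positions passing the coverage and share minimums in each of the 12 libraries (y axis), stacked by class of surroundings. The 2 libraries labelled HF hold 2112 and 1792 positions after a run of G, against 0 to 5 in each other library, while the G-poor tracts are most numerous in polysome libraries.

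Positions with a reference A or G were few but nearly complete in share. In the 339 library values of the 68 positions, the share of reads with a variant base was above 95% in 333 and above 90% in 337, and the lowest was 82.7%. The remaining 450 A or G positions of the lists, outside the rule, had no share below 80.0% either, so these lists hold no A or G position at an intermediate share. Of the 68, 23 lay in coding sequence, 15 in a 3′ UTR, 1 in a 5′ UTR, 22 in a noncoding exon, 6 in an intron and 1 outside annotated genes. The name of a pseudogene or predicted gene was carried by 20, and the share of such names among all listed positions was not counted.

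**Figure D2:**
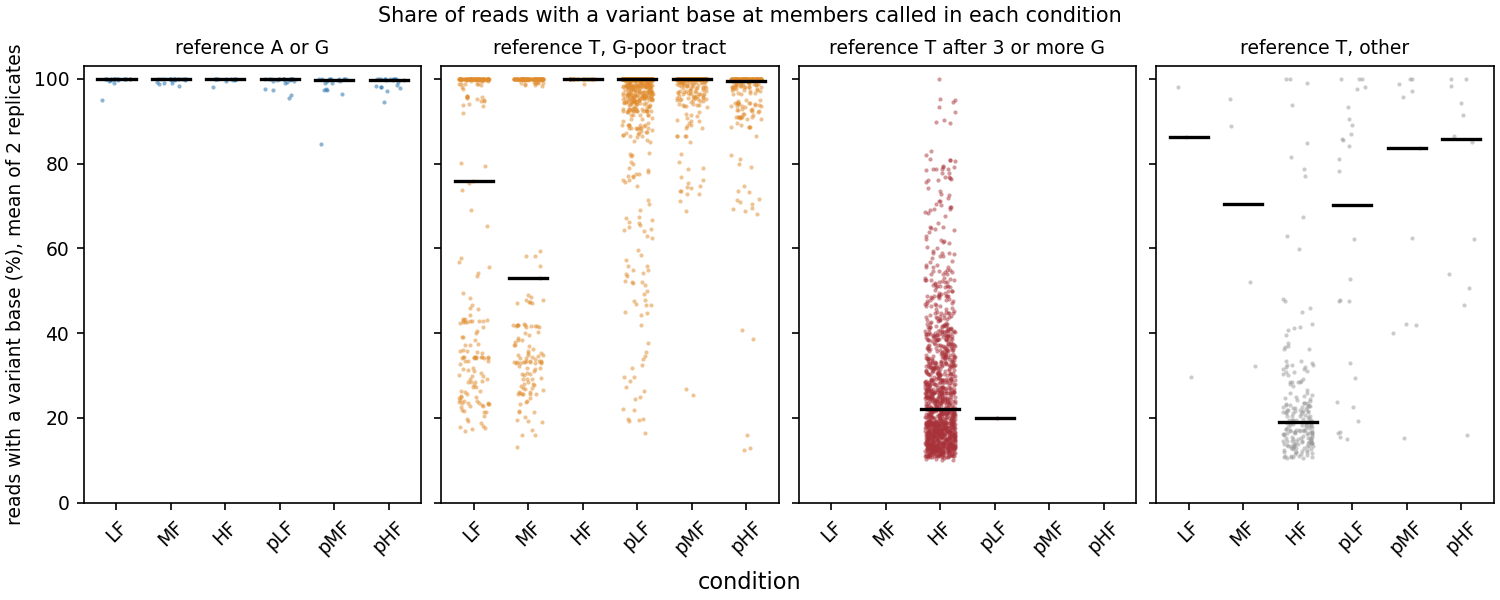
Share of reads with a variant base (y axis, %, mean of 2 replicates) at the positions called in each condition (x axis), in 1 panel per class; points are positions and bars are medians. A or G positions sit near 100% in every condition, G-poor tracts range from low shares to 100%, and the positions after a run of G are almost all from HF, with a median of 22.2%.

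Ckb, which encodes the brain form of creatine kinase, held 3 of the 4 positions called in all 6 conditions. At its A in the 3′ UTR (chr12:111669517) LF gave shares of 99.79 and 99.60%, MF 99.84 and 99.70%, and HF 99.61 and 99.48%. From polysome RNA, pLF gave 97.19 and 97.45%, pMF 96.91 and 96.15%, and pHF 96.67 and 97.69%. All 6 total-RNA libraries thus lay above all 6 polysome libraries, at coverages of 764 to 11524 reads. The same order held at the G in exon 8 of Ckb (chr12:111669608), where total RNA gave 98.85 to 99.83% and polysome RNA 97.30 to 98.20%. At the G in exon 5 (chr12:111670899), read 34329 to 42850 times, all 12 values were 99.84 to 99.99%, again with no overlap between total and polysome RNA. Another Ckb position, an A in a noncoding exon at chr12:111671763, was listed only in pMF, with 86.6 and 82.7%, the lowest shares of the class.

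Gm12892, annotated as a processed pseudogene, held the remaining position of all 6 conditions, a G at chr4:122009212 with 99.91 to 100% in the 12 libraries. Unlike at the Ckb positions, total and polysome RNA overlapped there. Nenf, which encodes a secreted neurotrophic protein, and the 3′ UTR position of Ccnd2, which encodes cyclin D2, were listed in 10 and 11 libraries, each value above 99.7%. Fbln2 had 99.98% in 1 LF library, 99.90 and 99.91% in MF, 99.93% in 1 library labelled HF, 99.40 and 98.61% in pLF, and 98.98 and 99.31% in pMF at its G in exon 2. Fbln2 was not listed there in the remaining 4 libraries. A position without a single C read is absent from a list, so an empty entry does not say that the variant was absent.

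The A or G positions were not spread evenly over the genome. Joined where neighbours lay within 5 Mb, 36 of the 68 (52.9%) fell in 6 blocks with at least 3 positions, which together span 24.9 Mb. The densest ran from 111669517 to 113158083 on chromosome 12 (mm10) and held 14 positions in 7 genes: Ckb, Bag5, Klc1, Zfyve21, Akt1, Cep170b and Tedc1. Akt1, the growth-factor kinase, had 4 of them. A second block on chromosome 12 (69372705 to 79165070) held 6 positions, among them Arf6, Nin and Vti1b. Chromosome 6 held 6 positions between 122316369 and 127139136, in M6pr, Chd4, Ncapd2, Tigar and Ccnd2, and 3 between 88884742 and 93678941, in Mcm2, Fbln2 and Magi1. Chromosome 11 held 4 (Cnot8, Trim11, Arf1 and Specc1), and Gm26917 on chromosome 17 held 3. Of the 450 A or G positions that the rule had not taken, 65 (14.4%) also lay in these blocks, while 2.16% of the reference cytosines listed in the second MF library did.

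As a comparison of cultures, the A or G positions called in each condition were looked up in the libraries of the others. All 13 called in HF were also listed in at least 1 library of another condition, 12 of them in LF or MF and 12 in a polysome library. The same was so for 17 of the 20 called in LF, 19 of the 23 in MF, 20 of the 23 in pLF, 17 of the 19 in pMF and 20 of the 21 in pHF. Another 20 of the 68 were listed in an HF library without being called there, and since the rule had taken these from other conditions, their presence elsewhere was fixed. Listing was sparse even between replicates: of the 66 and 58 A or G positions that passed in the HF libraries singly, 13 passed in both. In all, 55 of the 68 were listed in 2 or more conditions and 9 in all 6. The share of all listed positions that recur in another condition was not counted, so no excess of sharing is read from these numbers. The block with Ckb and Akt1 was seen in every library, with 5 to 10 of its 14 positions listed. It holds the Ckb positions called in all 6 conditions, so its presence in each library was fixed by the rule. Since the lists hold no A or G position at a lower share, the height of these shares does not bear on the origin of a culture. Sharing of positions cannot tell cultures of the same strain apart, and misplaced reads were not separated from alleles.

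**Figure D3:**
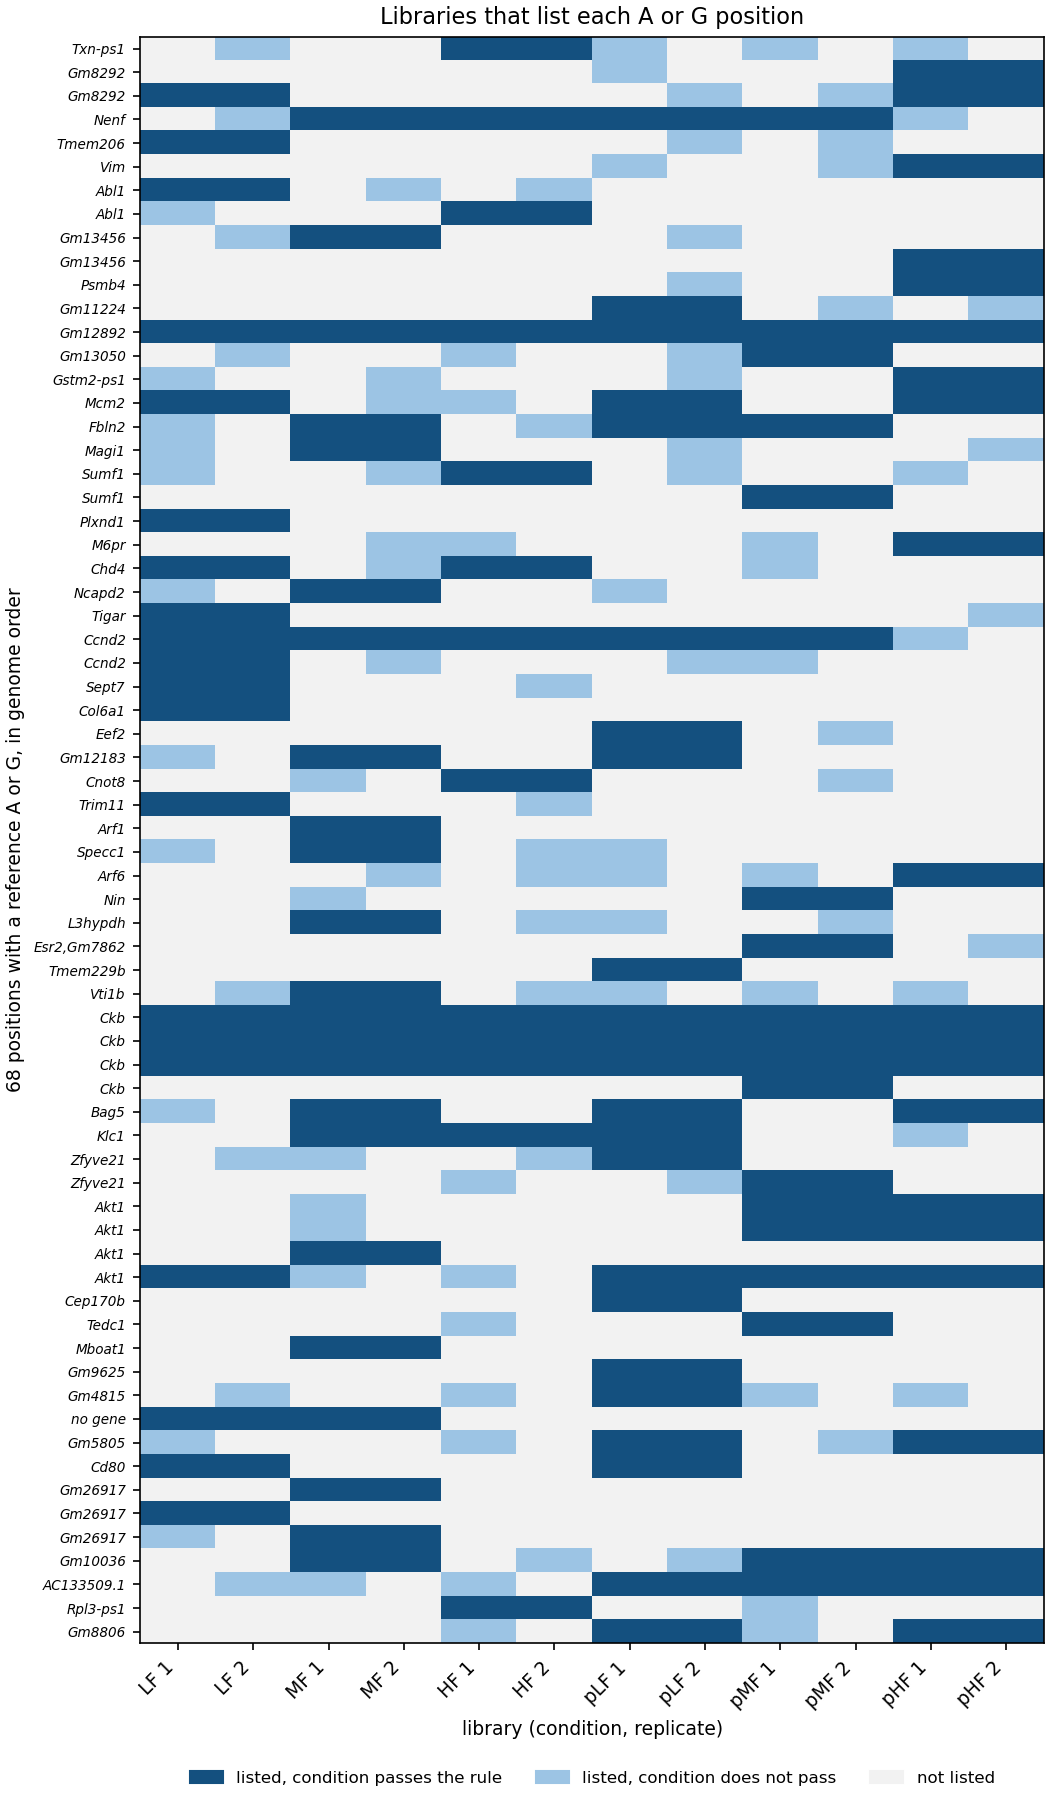
The 68 positions with a reference A or G (rows, named by gene, in genome order) in the 12 libraries (columns). Dark cells are listed in a condition that passes the rule in both replicates, light cells are listed without it and pale cells are not listed; 4 rows, 3 of them Ckb, are dark throughout and the 13 rows called in HF are all coloured in another condition too.

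Genes of the Y chromosome and Xist, the transcript that silences an X chromosome in female cells, gave a measure of origin that the rule had not used. No cytosine of Xist was listed in any library, whereas Ddx3y, Kdm5d and Eif2s3y were listed in all 12 and Uty in 9. Together these 4 genes had 402 to 578 listed cytosines in the 6 total-RNA libraries, HF included (402 and 439), and 10 to 146 in the polysome libraries. Markers of neural stem cells were listed in every library for 9 of 10 genes, such as Nes, Vim and Fabp7. No cytosine was listed under the name Sox2. The overlapping Sox2ot had 256 to 1039 cytosines, and how many of these lie in Sox2 was not counted. Among the lists for other cells, Rbfox3, S100b, Mog, Sox10, Aif1, Csf1r and Cldn5 were never listed, and Tubb3, Map2, Syp, Aldh1l1, Pdgfra and Cx3cr1 were listed in all 12. Mesenchymal markers had 1981 (6 of 6 genes) and 1858 listed cytosines in HF, 1375 to 1480 in LF and MF and 1101 to 1640 in the polysome libraries, and Dcn and Lum were listed only in the first HF library.

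The libraries labelled HF also differed from LF and MF in how deeply marker genes were read, in coverages of listed cytosines that are not scaled for library depth. Over all listed positions the median coverage was also lower, at 376 and 363 in HF against 524 to 609 in LF and MF. A lower median in HF was thus seen beyond these markers, but its size was not compared with theirs. How many other genes were lower was not counted. Summed coverage was 2575251833 and 2016039979 in HF and 2468773578 to 3018859494 in LF and MF, so the first HF library lay inside that range. Of the 9 listed neural stem cell markers, 6 (Nes, Vim, Fabp7, Slc1a3, Egfr and Olig2) had lower median coverages in both HF libraries than in any LF or MF library, 1 (Msi1) had higher ones and the others overlapped. Fabp7, a fatty acid binding protein of neural progenitors, had 3363 and 3267 in HF and 13308 to 19324 in LF and MF, while Msi1, an RNA-binding protein, had 1236 and 513.5 against 156 to 316. Of the 4 mesenchymal markers listed in all total-RNA libraries, Col1a1, Pdgfrb and Acta2 were higher in HF and Col1a2 overlapped, with 2775 and 2344.5 against 359 to 646 for Acta2, the smooth muscle actin. Among the Y genes 3 of 4 were lower in HF, and of the 9 such markers of neurons, astrocytes, oligodendrocytes and microglia 2 were lower, 2 higher and 5 overlapped. These orders are a description with no test. Cell numbers, RNA per cell, library depth and the set of cytosines listed cannot be told apart in them.

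The 968 positions in G-poor tracts lay close together. Another position of the class was within 25 bases for 98.5% of them, and joined over gaps of up to 200 bases they formed 67 tracts with a median of 8 positions. In 60 of the 67 at least 90% of the bases were C or T, and 65 held no G. Most positions (788) were outside annotated genes, 175 in introns and 5 in a 3′ UTR. In annotated exons, 7.77% of the T positions had at most 1 G among the 20 flanking bases. This is an unlike set, since most tract positions lay outside exons, and introns and intergenic sequence were not counted.

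The tracts called in LF and MF were not those called in polysome RNA. LF and MF shared 179 positions, 81.0% of the 221 in LF and 88.2% of the 203 in MF, while no tract position called in LF or MF was called in a polysome condition, and none of the 10 LF or MF tracts was among the 57 polysome tracts. By comparison, 1558 reference cytosines had at least 20 reads and at least 10% C reads in both replicates of LF or MF. Of these, 311 (19.96%) met the same minimums in a polysome condition. With the coverage minimum alone, the share was 37.5%. Cytosines inside the tracts were not taken out of this set, and each LF or MF library had 326 to 372 of them with at least 20 reads. The share without them was not counted. The 3 polysome conditions shared 179 positions; pMF and pHF had 93.6% and 95.3% of their positions also in pLF, whereas 38.3% and 29.7% of the 690 in pLF were in pMF and pHF. HF had 25 tract positions, of which 20 were also in pLF and none in LF or MF. At any coverage, called positions included, the libraries labelled HF listed some of both, 89 and 36 of the 245 positions of LF or MF and 30 and 62 of the 718 of polysome conditions. Of the same 245, only 25 were listed in any polysome library, all in the second pMF library, and of the 718 only 1 in LF or MF. Absence from a list does not tell low coverage of a tract from coverage without a C read.

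**Figure D4:**
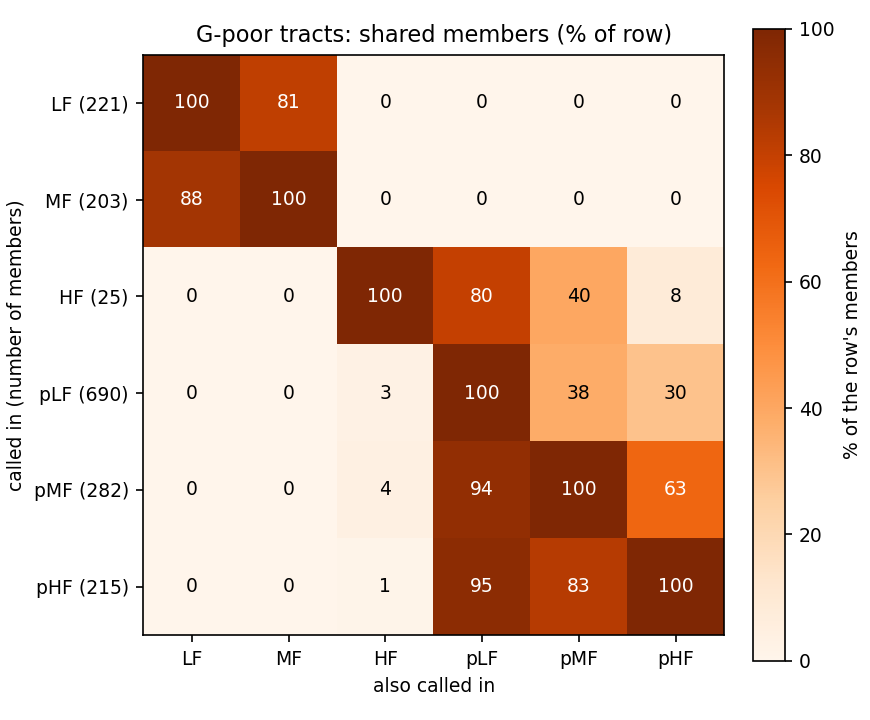
Sharing of the G-poor tract positions between conditions: each cell gives the percentage of the positions called in the row's condition (number in brackets) that were also called in the column's condition. LF and MF share most of their positions and none with the polysome conditions, which share with each other and with HF.

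The largest tract, on chromosome 8 (6906730 to 6906864, minus strand), held 58 positions, with a median share of 96.6 and 97.1% in the pLF libraries. The pMF libraries gave 98.4 and 95.7% and the pHF libraries 93.1 and 96.6%. No position of it was listed in LF, MF or HF. The tract on chromosome 14 (122497101 to 122497261) held 51 positions, all called in both LF and MF, with median shares of 32.2 and 34.5% in LF and 35.9 and 35.3% in MF. On chromosome 4 (138759467 to 138759614) 41 positions had 44.4 and 40.9% in LF and 40.7 and 42.5% in MF, and a tract on the X chromosome (38293767 to 38293879) had 100% in every polysome library. Each polysome library had a median share of at least 98.98% over its called tract positions, and the median difference between replicates was at most 1.67 points in every condition. Over those of the 245 positions of LF or MF that each library listed, the medians were 97.1 and 87.2% in LF and 56.3 and 96.4% in MF, where 204 and 242 positions were listed, so no order of LF and MF is read from them.

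The reference cytosines inside the tracts, which the rule did not use, carried unconverted reads as well. Over all tracts, 42.5 to 47.3% of the reads at these cytosines were C in LF and MF and 65.7 to 75.1% in the polysome libraries, and 99.9 and 72.3% in the few tracts with such cytosines in HF. In the chromosome 14 tract the values were 39.2 and 42.0% in LF and 40.4 and 39.98% in MF, at 62 to 66 cytosines. Listed cytosines outside runs of G had 0.140 to 0.202% unconverted reads over the whole of each library. Lists hold only positions with a C read, so these values are above the true share of unconverted reads.

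In the genes with the most positions, all of these lay in introns, and all but 1 position of Emilin2 in G-poor tracts. S100a13, which encodes a small calcium-binding protein, held 55, all called in pLF only, with median shares of 81.0 and 80.0% at median coverages of 27 and 24 reads. Arhgap42 had 22 in pLF and pMF, each at 100%, and 1700012D14Rik had 14, with 12 in pLF and 9 in pHF. Col12a1, a collagen gene, had 14 and Lrp1b, a receptor of the low-density lipoprotein receptor family, had 12, both called in pLF only. All 14 positions of Col12a1 were also listed in every pMF and pHF library, at median coverages of 56 and 129 in 1 library of each but of 19 and 12 in the other. Emilin2 had 11 in pMF, Gm49317 had 10 in pLF, and Atxn10, Dgki and Ighd had 8 each. Coverage near the minimum of 20 reads set several of these assignments: S100a13 positions were also listed in 1 pMF library (48 positions, median share 97.1%, median coverage 17) and 1 pHF library (24 positions, 70.0%, coverage 10).

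Of the 1181 positions after a run of G, 1180 were called in HF and 1 in pLF. Of the 1180, 1174 were listed in no other library, and the 12 values that other libraries gave for the remaining 6 reached at most 6.76%. The share of all T positions listed in HF that no other library listed was not counted. Absence from a list does not tell low coverage from coverage without a C read. The 1180 positions were spread over 1082 genes, 1001 of them with a single position and 6 with 3 or more, and 96.2% lay in exons. Their mean share had a median of 22.2%, with quartiles of 16.0 and 34.3%, and the median gap between replicates was 4.58 percentage points. Only 112 had a mean share above 50%.

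Of all 1408 reference T positions called in HF, 83.8% followed a run of at least 3 G, 70.3% a run of at least 4 and 38.7% a run of at least 5. In annotated exons 1.17% of T positions follow at least 3 G, 0.291% at least 4 and 0.0704% at least 5. Counting any 3 G among the 6 bases upstream, 1373 of the 1408 (97.5%) qualified, including 193 of the 203 in the class of other surroundings. The median share was 21.6% at positions with no G just upstream, 20.5% after 1 G, 18.6% after 2, 18.7% after 3, 19.3% after 4, 26.2% after 5, 25.4% after 6 and 48.9% after 7 or more, where 14 positions remained. Called positions all exceed the minimum share, so these medians are cut off from below.

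Genes that the study names were among them. Ptch1, the receptor of Hedgehog ligands, had 20.9 and 21.9% in the 2 HF libraries at a T in exon 16, read 407 and 393 times. Col8a1, a collagen gene, had 14.3 and 13.98%, Wbp2 17.2 and 17.8%, and Piezo1, a mechanically gated ion channel, 13.5 and 11.3%. The T after 3 G in exon 2 of Fbln2 (chr6:91234098) had 19.9 and 16.1%. Atn1 (44.0 and 45.5%), Fbn1 (22.7 and 36.8%), Pgm1 (32.0 and 63.3%) and Col1a2 (87.5 and 78.6%) completed the list, the last 3 at coverages of 22 to 38 reads. None of these 9 T positions was listed in any other library.

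Reference cytosines after runs of G were then examined. Neither they nor their levels entered the rule, but this comparison was not planned. It was chosen after the runs of G had been seen at the positions called in HF. After at least 4 G, 2.49 and 2.36% of the reads at listed cytosines were unconverted in the libraries labelled HF, against 0.233 and 0.215% in MF, 0.222 and 0.225% in LF and 0.197 to 0.261% in the polysome libraries. The mean was 2.43% ± 0.0902 (SD, n = 2) in HF and 0.224% ± 0.0124 (SD, n = 2) in MF, a difference of 2.20 percentage points. All libraries of HF lay above all of MF, but 2 against 2 libraries cannot give a two-sided exact permutation p below 0.333, which was the value found. After 5 G the values were 5.29 and 5.05% in HF and 0.300 to 0.447% in the other 10, and after 6 or more 8.48 and 7.51% against 0.215 to 0.403%. After fewer than 3 G, HF had 0.188 and 0.195%, above the 0.144 to 0.154% of LF and MF and inside the 0.140 to 0.202% of the polysome libraries. Of these, cytosines after exactly 2 G had 0.236 and 0.242% in HF and 0.127 to 0.172% in the other 10.

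**Figure D5:**
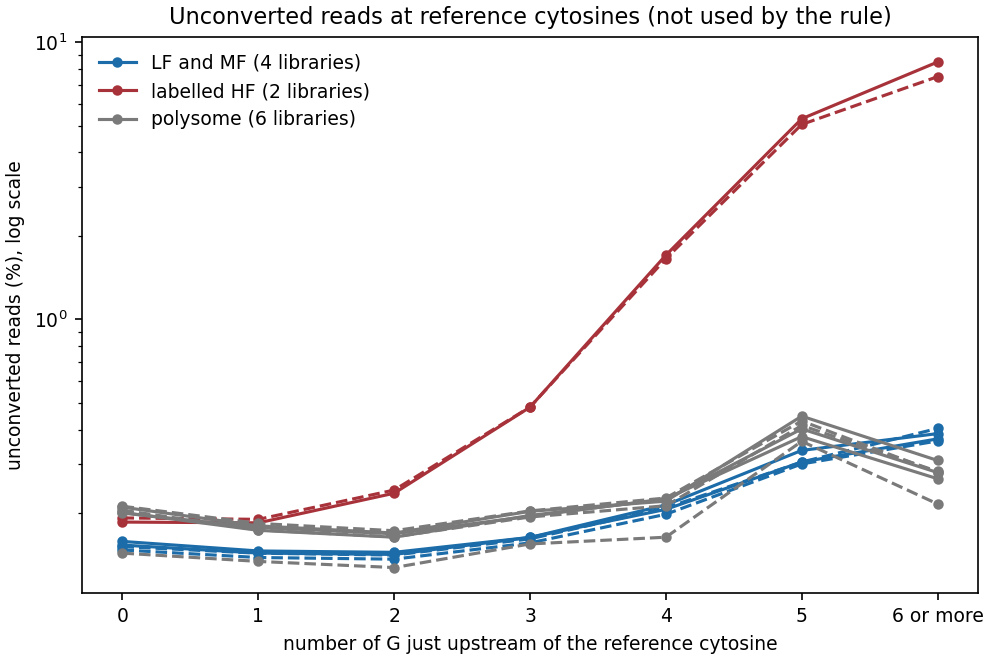
Unconverted reads (y axis, %, log scale) at listed reference cytosines with a coverage of at least 20, by the number of G just upstream (x axis); each line is 1 library, with replicate 1 solid and replicate 2 dashed. The 2 libraries labelled HF rise to 8.48 and 7.51% after 6 or more G, while the other 10 reach at most 0.447%.

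Among its filters the study asks for a coverage of 20 reads or more, of which 6 or more and no fewer than 10% are C. With this filter alone, without the others that define the study's m5C sites, 54.5 and 55.5% of the 5530 and 4460 reference cytosines that passed in the 2 HF libraries followed at least 3 G, against 1.46 to 3.16% in the other 10 libraries. Reference T positions that stayed under the minimum share were also counted, with 26.1 and 28.4% after at least 3 G in HF and 0.838 to 1.71% elsewhere.

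Of the 238 positions in other surroundings, 201 were called in HF only and 17 in pLF only. Ptms, which encodes parathymosin, was called at 1 T in MF, HF and pMF, with shares of 18.3 to 64.3% in 8 libraries. A T assigned to Gm11478 and Vmp1 was called in 5 conditions, HF being the exception. Both the Ptms and the Gm11478 position are among the 13 where most variant reads were not C in at least 1 library. Their shares are thus not shares of C reads. Ephb2, an ephrin receptor gene, had 3 positions in pLF in its 3′ UTR and 3 others in HF after runs of G, among them 1 in its coding sequence. In the gene families with many copies that were looked up, ribosomal protein genes held 14 positions in 13 genes and the housekeeping genes 9. Histone, actin or tubulin and H2 genes held 2 each, while 72 positions bore names of pseudogenes or predicted genes. The share of all listed positions in these families was not counted, so no excess is read from these numbers.

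Methylation levels could be compared only at A or G positions, where the level (C reads among C and T reads) did not choose them; at reference T positions the level is the share itself. The minimums on coverage, level and C reads alone, without the study's other filters, left 1133 cytosines for LF against MF, of which 1.41% were called by Fisher's exact test at an adjusted p of 0.05 (0.177% higher and 1.24% lower in LF), and 1 A or G position was among the 1133. That position, an A at chr14:122497120 inside the chromosome 14 tract, had 48 of 163 and 48 of 121 reads as C in LF (34.6% ± 7.23, SD, n = 2) and 31 of 108 and 40 of 116 in MF (31.6% ± 4.09, SD, n = 2). The replicates of the 2 groups overlapped, and it was not called, with a difference of 2.11 points from pooled reads (Fisher's exact test, p = 0.635, Benjamini-Hochberg adjusted p = 1). Its sign turned with 1 library left out, to -2.25 points without the second LF library and -0.680 without the first MF library. No A or G position passed the filter in the other 6 comparisons, which were HF against MF, pLF and pHF against pMF, and each polysome condition against its total RNA.

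At the A or G positions with a coverage of at least 20, the median level was 0.0948 to 0.273% and lay below that of listed reference cytosines, 0.192 to 0.394%, in 12 of 12 libraries. The mean difference was -0.173 points ± 0.0656 (SD, n = 12), with an exact two-sided sign-flip permutation p of 0.000488, the smallest that 12 libraries allow. With means in place of medians the difference was -0.180 points and was not called (permutation p = 0.385). The position in the chromosome 14 tract raised the means at A or G positions to 1.29 to 1.65% in LF and MF. Reference cytosines had means of 0.644 to 0.724% there. Without that position the LF and MF means were 0.245 to 0.490%. The mean then lay below that of reference cytosines in every library, but the permutation test on means was not repeated without it. The libraries share positions and are not independent of one another. The A or G positions were also read more deeply, with median coverages of 691 to 1750 against 373 to 1032, and since a listed position has at least 1 C read, its lowest possible level falls with coverage; 9 to 20 of the 23 to 34 positions per library had exactly 1 C read. With a coverage minimum of 50 the difference was -0.134 points (exact permutation p = 0.000488); the part of coverage was not tested otherwise.

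Positions just inside the minimum share lay in Rad50, Numb and Pitrm1, each with 10.0% in the lower HF replicate, and those just outside in Rnf5 (9.95%), Nrd1 (9.96%) and at a position assigned to Gm15725 and Lrrc58 (9.98%), also in HF.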

How the data were processed

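Poly(A) RNA of 12 libraries was bisulfite-treated, sequenced and called by the authors with meRanCall on mm10. Each deposited list gives per position the coverage, the C read count and the count of reads with a variant base as counts, and the methylation level as a fraction. A position is listed from 10 reads and 1 C read; the lists precede the authors' filters on conversion, coverage, false discovery and structure. The submitters' processing notes name R 4.1.1.

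The rule was applied to all lists in Python 3.11.15 with pandas 2.3.3. The 21 bases around all 2455 positions matched GRCm38, and genes and exons came from GENCODE on that build. Members, classes and gene lists were chosen with earlier results of these data known. The text names the genes with the most positions (ties kept), the 4 positions listed in all 12 libraries, those next to the minimum share and those in genes the study names; other names were chosen after their values were seen.

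Methylation levels were tested with Fisher's exact test on pooled reads (scipy 1.17.1), adjusted over all cytosines tested, with limma 3.58.1 in R 4.3.3 as an alternative on log2 odds with a pseudocount of 0.5. The test script was checked on simulated data. Because the level at a reference T equals the share that chose it, only A or G positions were tested. Alternatives were a coverage of 50, a share of 0.2, no required state, pooled replicates and single libraries left out. No molecular identifiers mark the reads, which may thus be copies of 1 molecule, and exact tests on reads cover counting error only. The authors' site and gene comparisons were not used.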

Additional observations from a re-analysis of the deposited data

How the results depend on the processing

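With a coverage minimum of 50 there were 1310 positions in all, 124 in LF, 136 in MF, 924 in HF, 205 in pLF, 127 in pMF and 114 in pHF. A minimum share of 0.2 left 645 in HF, fewer than the 727 in pLF. Pooled replicates gave 6940 in all, 538 in LF, 482 in MF, 3939 in HF, 1851 in pLF, 992 in pMF, 1543 in pHF and 10 in all 6 conditions. With only 1 replicate per condition the counts were 4638 to 4882 in all, 322 to 414 in LF, 305 to 353 in MF, 2558 to 3028 in HF, 999 to 1395 in pLF, 421 to 644 in pMF, 672 to 965 in pHF and 4 to 6 in all 6 conditions. HF held the most positions under each of these settings except the share of 0.2. Without a required state the counts stayed within 1.5 times.

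The LF against MF difference at chr14:122497120 was -2.25 to 7.97 points with 1 library left out, below 0 without the second LF library (-2.25) or the first MF library (-0.680), and never called. By limma on log2 odds it was 0.18 (adjusted p = 0.856), and with the replicate block 0.18 (adjusted p = 0.932). Over all 1133 cytosines limma called 0 (57 at an unadjusted p of 0.05) and 15 with the replicate block, against 16 by Fisher's exact test. LF and MF samples share only a number; deviations of same-numbered libraries correlated at 0.148.

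The difference in level between A or G positions and reference cytosines was -0.180 with means in place of medians (permutation p = 0.385), and -0.180 to -0.164 with 1 library left out. The position in the chromosome 14 tract raises the means in LF and MF, from 0.349 to 1.29% in the first LF library.

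For unconverted reads after runs of G, HF minus MF was 0.715 points with runs of at least 3 G, 2.10 with a coverage of 50, 2.14 to 2.27 with 1 library left out, and 2.20 within replicate numbers (replicate block); these settings were chosen after seeing the data. With a coverage of 50 the count fell in each of the 6 conditions; which classes lost positions was not tested.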
